A study of Mus musculus with 18 samples.

Results

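The members described here are 70,083 predicted piRNAs with the canonical piRNA form, which is a length of 24 to 33 nt and T (U in the RNA) as the first base. They were chosen by sequence alone, whatever the repeat class, from the predicted piRNAs numbered up to the point where the deposited list of F1 NHS replicate 1 ends, so that every list covers them. Up to that number there are 535,241 other predicted piRNAs, and 801,902 were deposited in all. Entries follow chromosome order, so the limit keeps entries of 14 main chromosomes, chromosome 4 in part. The other chromosomes were not analysed here, and 21,482 members (30.7%) lie on chromosome 10. Each entry is a sequence assigned by the authors to 1 annotated repeat interval, and the members were assigned to 24,348 intervals. Of the members, 69,981 were listed in at least 1 library and 102 in none.

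The data are small RNA libraries of ICR mouse sperm, 3 for each of 6 groups. The F0 NHS males had received NH3 and H2S for 5 weeks, starting at 3 weeks of age, and were mated with normal females. The F1 NHS males descend from them, received neither gas and were mated at 8 weeks, as were the F1 Con males, and the F2 NHS males are the next untreated generation. F0 Con, F1 Con and F2 Con are the unexposed lines of the same generations. The labels name no dose and do not say that the replicates are separate animals, so a p-value here sets a difference against the scatter of 3 libraries a group, part of which may be technical.

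PIWI-interacting RNAs guide PIWI proteins in the germline, where they silence transposons and are made in large numbers during spermatogenesis. PIWI proteins favour guides that begin with U, and mature piRNAs are longer than miRNAs. When a PIWI protein cuts a transcript opposite a U-first guide, the new piRNA overlaps the guide by its first 10 bases and carries A at position 10, which is called the ping-pong signature. Retrotransposons such as LINE-1 (L1), the endogenous retroviruses of the ERVK, ERVL and ERV1 families and the non-autonomous MaLR elements are known piRNA targets in mouse.

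The sequences of the 10 members with the highest mean level are shown first because several of them return in the results below. Each is written 5′ to 3′ with the first base in capitals, and also base 10 where it is A.
novel_pir140986: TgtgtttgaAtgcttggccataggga
novel_pir140983: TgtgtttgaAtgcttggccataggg
novel_pir140987: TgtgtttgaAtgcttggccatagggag
novel_pir140985: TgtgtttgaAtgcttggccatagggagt
novel_pir543269: TccggggacAgtgccaggtggggagt
novel_pir402871: TctacggccAtaccaccctgaacgcg
novel_pir402873: TctacggccAtaccaccctgaacgc
novel_pir402875: TctacggccAtaccaccctgaacg
novel_pir134113: Ttggtgtatgtgcttggctgaggag
novel_pir378078: Tgcttagcgtgggagatggatgaagcta
The first 4 differ only at the 3′ end and were all assigned to a MaLR interval on the minus strand at chr10:67563406-67563717 (mm10, as are all intervals below). The 3 sequences that begin Tctacggcc also differ only at the 3′ end and were assigned to an L1 interval on the plus strand at chr15:57432781-57433818. The sequence novel_pir543269 was assigned to an L1 interval on the plus strand at chr2:90394491-90395211. The last 2 were assigned to MaLR intervals on the minus strand, novel_pir134113 at chr10:42856810-42856927 and novel_pir378078 at chr15:74640017-74640332. These 10 sequences held 9.21% of all member reads.

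The libraries held between 17,224,399 and 29,430,555 reads. A level is given as TPM, the deposited count per 1000000 library reads with no length term. Libraries fell apart by a fragment of a tRNA gene for alanine (novel_mir1, in the RefSeq gene n-TAcgc10 on chromosome 13), which lay above 1000 TPM in 6 libraries and below it in 12. The 6 libraries are F0 NHS replicate 3, F0 Con replicate 2, F1 NHS replicate 2, F2 NHS replicate 1 and F2 Con replicates 1 and 2, so 3 of 9 NHS and 3 of 9 Con libraries. They are called the 6 tRNA-Ala-high libraries and the rest the 12 tRNA-Ala-low libraries. This split comes from the data and not from the labels, so values by it are descriptions without a test. All 3 germ cell miRNAs looked for (miR-34b, miR-34c and miR-449a) were detected in each of the 16 libraries with a complete miRNA list, and together held 0.990% to 10.9% of miRNA reads. Known piRNAs, the other germ cell marker, were summed in the 13 libraries with a complete list of all small RNAs. They held a median of 7.60% of library reads (4.60% to 11.5%) in 8 tRNA-Ala-low libraries. In 5 tRNA-Ala-high libraries the median was 7.49% (2.42% to 11.2%). The erythroid, smooth muscle, epithelium, leukocyte and muscle lists were also detected in full. Their shares ran from 0.0386% of miRNA reads for muscle to 41.8% for smooth muscle. RNA of other cells may thus be present, but detection alone does not show which cells the miRNAs came from. In such bulk RNA fewer cells of a type and less RNA per cell cannot be told apart.

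Every member has the canonical form by the rule, since first base and length chose the members. The following shares describe how common T was among entries of each length, and they were not tested. Among all listed entries of 24 to 33 nt, T was the first base in 46.3% to 61.3% in the 12 libraries and in 24.6% to 30.1% in the 6. In the 12 libraries the median was 27.3% at 18 nt, 42.3% at 24 nt and 61.4% at 28 nt, reached 70.1% at 29 nt, and was 68.1% at 30 nt, 59.7% at 31 nt, 48.4% at 32 nt and 45.7% at 33 nt. In the 6 libraries the median stayed between 25.2% and 28.8% from 18 to 31 nt, and was 21.4% at 32 nt and 50% at 33 nt, lengths with few entries. The share at 28 to 31 nt exceeded that at 18 to 23 nt in 12 of 12 libraries and in 1 of 6. Across the length limits the share had no step over all entries, being 34.5% at 24 nt against 33.9% at 23 nt, and 33.1% at 33 nt against 32.5% at 34 nt.

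**Figure D1:**
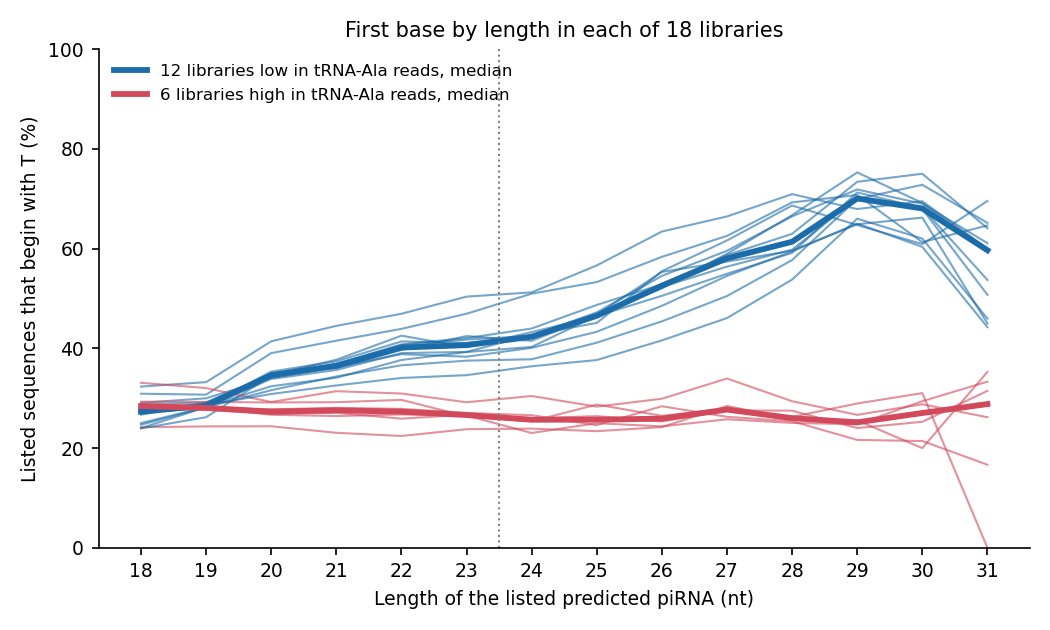
Share of listed predicted piRNAs that begin with T (percent) by length from 18 to 31 nt, with a thin line per library and a thick median line for the 12 tRNA-Ala-low (blue) and the 6 tRNA-Ala-high (red) libraries. The dotted line marks the lower length limit of the members, and the blue median reaches 70.1% at 29 nt while the red median stays between 25.2% and 28.8% over these lengths.

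Position 10 was not used to choose the members. Adenine at position 10 made up 23.7% to 29.4% of listed members in the 12 tRNA-Ala-low libraries, above both position 9 (19.1% to 24.2%) and position 11 (20.2% to 24.7%) in 12 of 12. In the 6 tRNA-Ala-high libraries it made up 19.1% to 22.3% and exceeded both neighbours in 0 of 6. Position 5 was richer in A than position 10 in the 12 libraries, at 27.2% to 34.1%, so position 10 was a local peak and not the highest one. Entries of 24 to 33 nt with another first base were no poorer in A there: the medians were 27.9% for members against 29.6% for these entries in the 12 libraries, and 21.1% against 23.6% in the 6.

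Members were also paired by their 5′ ends. A pair is 2 entries of 24 to 33 nt assigned to the same interval, at least 1 of them a member, whose first bases are reverse complements over the stated overlap. Entries that differ only at the 3′ end form separate pairs. Sums over libraries count a pair again in each library that lists both entries. The numbers of pairs are thus not numbers of distinct 5′ ends. Such a 10-nt overlap places A at position 10 of the partner of any T-first member, so it repeats the position 10 count in part. Within the 12 tRNA-Ala-low libraries 766 pairs overlapped by 10 nt, against 308 by 9 nt and 318 by 11 nt, and 10 nt exceeded both neighbours in 12 of 12. It was not the most frequent overlap in each library. F0 Con replicate 1 had 22 pairs at 10 nt but 32 at 17 nt, and F0 Con replicate 3 had 15 but 28 at 18 nt. In F1 Con replicate 1, 10 nt led with 135 pairs. The ratio of 10-nt pairs to the mean of both neighbours lay between 1.52 and 3.80 in the 12 libraries. Within the 6 tRNA-Ala-high libraries 50 pairs overlapped by 10 nt, against 50 by 9 nt and 63 by 11 nt, with 10 nt above both in 1 of 6. F0 Con replicate 2 had 0 such pairs.

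Over all entries, without asking for the same library, ERVK gave 1108 pairs of 10 nt against 871 of 9 nt and 631 of 11 nt, and L1 gave 697 against 482 and 501. Over all families 2603 pairs overlapped by 10 nt, a local peak, since 2752 did so by 6 nt and 2623 by 20 nt. MaLR, which holds the most member reads, gave 277 against 253 and 230. The highest ratio among the 7 larger families was in L2, an ancient LINE family, at 3.30, with 61 pairs of 10 nt against 31 of 9 nt and 6 of 11 nt. The member pair with the highest product of levels joins the leading MaLR sequence to a member read once, and a pair of ERVK members at chr10:18239451-18240253 is shown beside it because both partners recur. That second pair was chosen after its values were seen. Capitals mark the first 10 bases, which are reverse complements within a pair.
novel_pir140986: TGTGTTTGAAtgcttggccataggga
novel_pir140976: TTCAAACACAgaagtctgtgggggccatt
novel_pir30601: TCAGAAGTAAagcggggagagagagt
novel_pir30097: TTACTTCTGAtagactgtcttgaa
The ERVK partners were listed in 7 and 13 libraries with 28 and 68 reads, and the MaLR partner novel_pir140976 in 1 library with 1 read.

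**Figure D2:**
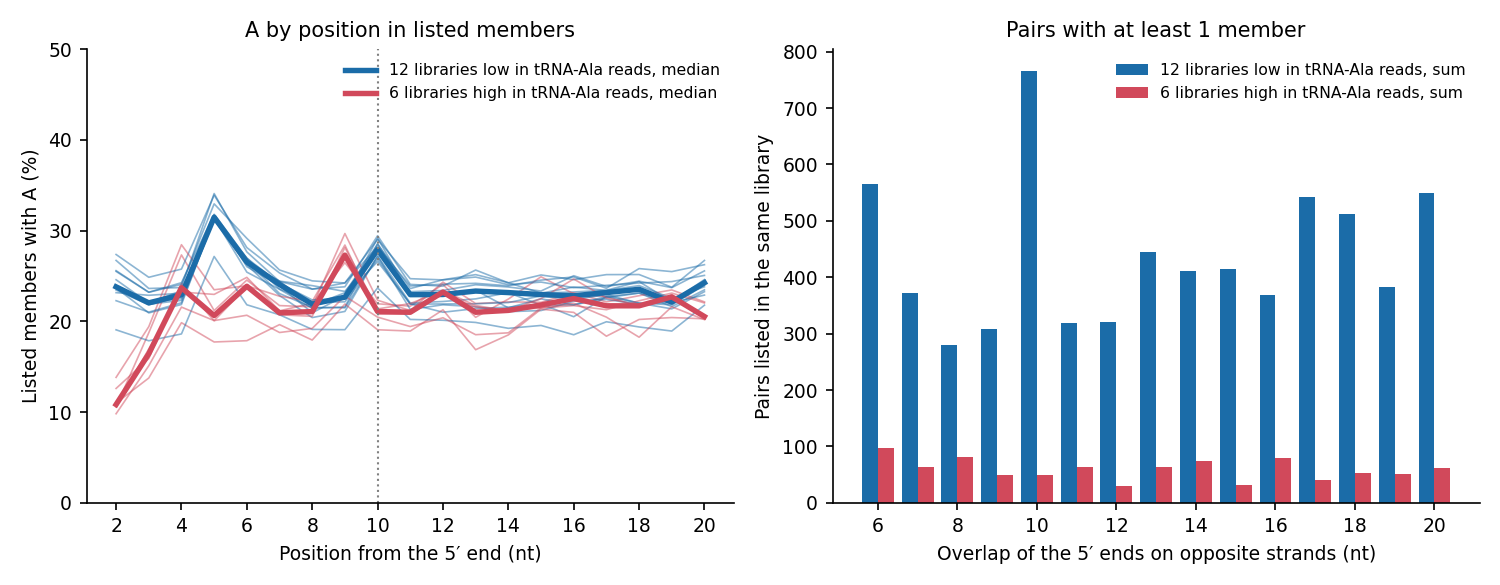
Left, share of listed members with A (percent) at positions 2 to 20, as thin lines per library and thick medians for the 12 tRNA-Ala-low (blue) and the 6 tRNA-Ala-high (red) libraries. Right, number of 5′ overlap pairs by overlap in nt, summed within libraries, with 766 pairs at 10 nt in the 12 libraries and 50 in the 6.

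Properties outside the rule were compared within each library between the members and all other predicted piRNAs, in 12 tests by sign-flip permutation over 18 libraries, two-sided, where 1e-05 is the smallest p that the resampling can give. Members were read less deeply per sequence than the others, at 2.69 against 6.14 reads per listed sequence on average over libraries, lower in 18 of 18 (permutation p = 1e-05). They were also shared between libraries more often, since 46.5% of the members listed in a library were found in that library alone against 60.4% of the others, lower in 18 of 18 (permutation p = 1e-05). Opposite orientation to the annotated repeat, which could be read where a sequence matched a transcript across its interval, made up 58.7% of placed members against 49.6% of placed others, higher in 17 of 18 (permutation p = 1e-05). T may be unequally common on the strands of a repeat and between families. Choosing T-first sequences could thus shift orientation and family shares by itself, and these tests cannot separate that. Its part was not tested. Weighted by reads, A at position 10 was in 34.9% of members and 21.2% of others, higher in 18 of 18 (permutation p = 1e-05), while by listed sequences the values were 25.4% and 24.6% (permutation p = 0.0905, adjusted 0.109). The values by reads weigh the leading groups most. Members that share their first 18 bases with novel_pir140986 or novel_pir402871 all carry A at position 10. In the 6 tRNA-Ala-high libraries those of novel_pir402871 summed to 22.3 to 90.2 TPM, of 132 to 493 TPM for all members. No value without these groups is given here. By listed sequences members were higher in 12 of 12 tRNA-Ala-low libraries (27.7% against 25.6%) and in 0 of 6 tRNA-Ala-high ones (21% against 22.6%).

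The stricter comparison, added after the data were seen, sets members against entries of the same lengths with another first base. Reads per sequence stayed lower in members, at 2.69 against 4.67 (lower in 17 of 18, permutation p = 2e-05), and so did the share found in 1 library, at 46.5% against 63.2% (lower in 17 of 18, permutation p = 1e-05). Opposite orientation stayed higher, at 58.7% against 49.8% (higher in 17 of 18, permutation p = 0.00015). The sets compared here differ by first base as well, so the same limit holds for orientation and family shares. For A at position 10 the direction turned: 25.4% of listed members and 27.3% of the same-length entries had it, lower in members in 16 of 18 (permutation p = 0.00016, adjusted 0.000384). By reads the values were 34.9% and 39.5% (permutation p = 0.426), but the direction differed between the libraries. Members were at 33.3% against 50.8% in the 12 tRNA-Ala-low libraries, higher in 2 of 12, and at 38.0% against 16.97% in the 6 tRNA-Ala-high ones, higher in 6 of 6. These values by reads include the leading groups named above.

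**Figure D3:**
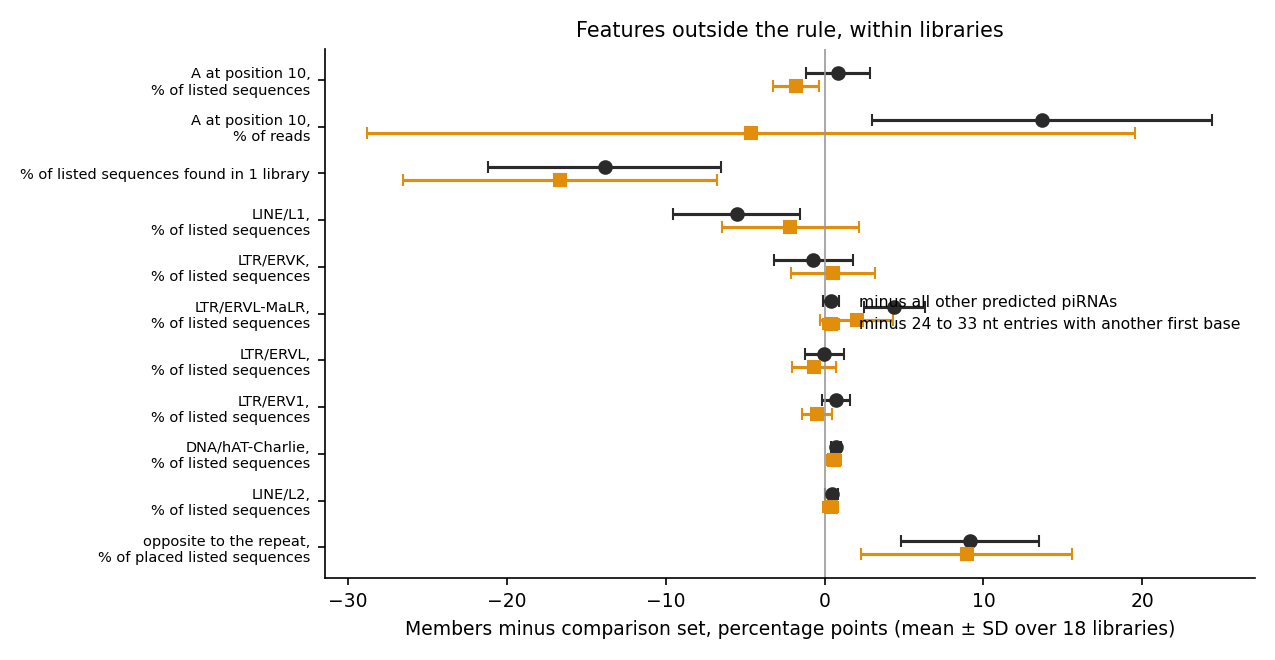
Within-library difference, members minus all other predicted piRNAs (black) and members minus entries of 24 to 33 nt with another first base (orange), mean ± SD over 18 libraries, for 11 properties given in percentage points of listed sequences or of reads. Opposite orientation lies right of 0 and the share found in 1 library left of 0 in both comparisons, while A at position 10 by listed sequences lies on opposite sides.

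By repeat family, 31 of the 36 families in the annotation held a member and 7 held at least 1% of members. L1, the autonomous LINE that is still active in mouse, held 20,147 members (28.7%). ERVK, the family that includes the intracisternal A particles, held 17,919 (25.6%) and MaLR held 15,608 (22.3%), while ERVL held 6459 (9.22%) and ERV1 5505 (7.85%). The DNA transposon family hAT-Charlie held 1934 members (2.76%) and L2 1429 (2.04%). By reads MaLR led with 31.6% of member reads, ahead of L1 with 23.7% and ERVK with 23.6%.

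Relative to all other predicted piRNAs, members were less often of L1 (26.4% against 31.96% of listed sequences, lower in 18 of 18, permutation p = 1e-05). They were more often of MaLR (23.7% against 19.3%, higher in 18 of 18, permutation p = 1e-05) and of hAT-Charlie (2.87% against 2.15%, higher in 18 of 18, permutation p = 1e-05). ERV1 (8.53% against 7.82%, permutation p = 0.00164) and L2 (2.13% against 1.69%, permutation p = 0.00074) were higher in 14 and 15 of 18. The tests for ERVK and ERVL did not pass (permutation p = 0.239 and 0.972), and both families differed in direction between the libraries. ERVK was higher in 9 of 12 tRNA-Ala-low libraries (26.5% against 25.9%) and in 0 of 6 tRNA-Ala-high ones (21.6% against 24.9%). ERVL was higher in 2 of 12 (9.08% against 9.69%) and in 6 of 6 (10.9% against 9.71%). Against same-length entries with another first base, MaLR was at 23.7% against 21.6% (permutation p = 0.00279), higher in 12 of 12 tRNA-Ala-low and 0 of 6 tRNA-Ala-high libraries. In that comparison hAT-Charlie stayed higher (2.87% against 2.27%, permutation p = 0.00011), L1 no longer passed (26.4% against 28.6%, permutation p = 0.0523), being lower in 12 of 12 tRNA-Ala-low libraries (24.7% against 29.7%) and higher in 6 of 6 tRNA-Ala-high ones (29.9% against 26.4%). ERV1 turned lower over the 18 libraries (8.53% against 9.03%, permutation p = 0.033, adjusted 0.0495). It was higher in members in 6 of 12 tRNA-Ala-low libraries (8.42% against 8.74%) and in 0 of 6 tRNA-Ala-high ones (8.77% against 9.63%). As said above, the first base of the rule may shift family shares by itself, which was not tested.

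Orientation is given by family as a description. Of placed members, 73.2% lay opposite to the repeat in ERVL and 68.7% in ERVK, 60.0% in L1, 44.6% in MaLR and 43.4% in ERV1. Entries of 24 to 33 nt with another first base were at 65.9% in ERVL, 56.3% in ERVK, 48.5% in L1, 49.5% in MaLR and 49.0% in ERV1, so members were above them in the first 3 and below them in the last 2. No test was run per family. Over all families 2694 of 4695 placed members lay opposite (57.4%), against 51.8% of 5773 placed entries of 24 to 33 nt with another first base. Exact matches to GENCODE M21 transcripts were found for 27.5% of members in the sense and 21.4% in the antisense direction. Structural RNA genes in sense matched 538 members, which are 0.768% of members and 4.37% of member reads. Only 15 of these matched rRNA genes, but with 2.90% of member reads. Nuclear tRNA genes were not part of the transcripts searched. Among the leading sequences, novel_pir543269, novel_pir134113 and novel_pir378078 matched no transcript in either direction. Matches elsewhere in the genome were not searched, so rRNA outside these transcripts is not in the 2.90%. A family name here is that of the assigned interval, and the source was not tested.

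Most members were rare. A single read over all 18 libraries stood behind 39,656 members (56.6%), 52,428 (74.8%) were listed in 1 library, and 30 in all 18. The 12 tRNA-Ala-low libraries alone listed 57,105 members, the 6 tRNA-Ala-high ones alone 9539, and 3337 were listed in both, which is 5.52% of the members seen in the 12 and 25.9% of those seen in the 6. Sharing of 5′ ends was common: 52.3% of members began with the same 18 bases as another member, in groups of up to 85.

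Summed over members, the level had a median of 1007 TPM in the 12 tRNA-Ala-low libraries (342 to 1474) and 261 TPM in the 6 tRNA-Ala-high ones (132 to 493). Entries of 24 to 33 nt with another first base had 1053 TPM (662 to 3153) in the 12 and 1125 TPM (726 to 2042) in the 6, and T-first entries under 24 nt had 1477 TPM (782 to 3475) and 1045 TPM (826 to 2008). The gap between the libraries was thus wide for members and narrow for both neighbouring classes. By family, median member levels in the 12 and the 6 libraries were 322 and 52.2 TPM for MaLR, 238 and 39.7 TPM for ERVK, and 213 and 123 TPM for L1. By these medians MaLR led the member reads in the 12 libraries and L1 in the 6, where the L1 sum of 59.0 to 192 TPM includes 22.3 to 90.2 TPM of the group led by novel_pir402871, which also matches rRNA transcripts.

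The most abundant group of members, 47 sequences of 24 to 30 nt that share their first 18 bases with novel_pir140986, held 5.99% of member reads. Its sequence matched a Smyd5 transcript in antisense. Summed levels in F0 NHS were 42.6, 22.3 and 0 TPM, against 16.9, 0.0472 and 13.9 TPM in F0 Con. They were 57.7, 0.0690 and 40.5 TPM in F1 NHS, against 45.2, 96.0 and 138 TPM in F1 Con, and 0.385, 108 and 50.7 TPM in F2 NHS, against 0.335, 0.443 and 110.0 TPM in F2 Con. The low values are those of the 6 tRNA-Ala-high libraries, which reached at most 0.443 TPM, while the other 12 lay between 13.9 and 138 TPM, and NHS and Con libraries overlapped in every generation.

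The group led by novel_pir402871, of 9 members with 2.68% of member reads, had the reverse pattern. It was listed under 1 L1 interval. Its leading sequence matched 47 transcripts of rRNA biotype, such as Gm22109, in sense and 0 transcripts in antisense. The source of these reads was not tested. Summed levels in F0 NHS were 1.22, 2.21 and 90.2 TPM, against 0.510, 22.3 and 0.374 TPM in F0 Con. They were 2.03, 86.7 and 3.26 TPM in F1 NHS, against 5.67, 1.10 and 3.61 TPM in F1 Con, and 48.6, 1.25 and 1.96 TPM in F2 NHS, against 40.4, 24.7 and 3.903 TPM in F2 Con. The 6 tRNA-Ala-high libraries lay between 22.3 and 90.2 TPM and the 12 others between 0.374 and 5.67 TPM. The third group, 5 members led by novel_pir543269, did not divide the libraries, at 1.84 to 22.2 TPM in the 12 and 9.02 to 30.5 TPM in the 6. Its leading member was listed in all 18 libraries, at 1.95, 2.24 and 4.68 TPM in F0 NHS, against 0.667, 3.31 and 0.801 TPM in F0 Con. It was at 3.77, 5.56 and 7.67 TPM in F1 NHS, against 6.84, 8.795 and 8.95 TPM in F1 Con, and at 15.03, 5.79 and 1.46 TPM in F2 NHS, against 6.19, 12.8 and 12.2 TPM in F2 Con. Its groups overlapped in each generation.

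**Figure D4:**
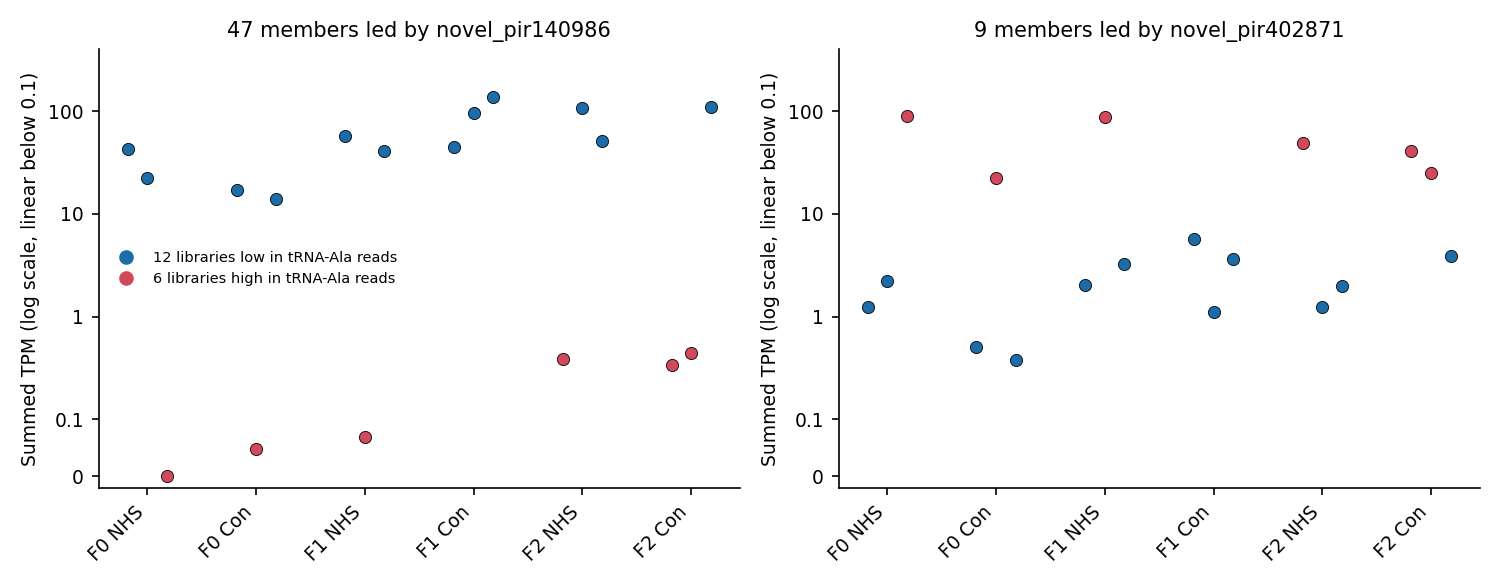
Summed level in TPM (symmetric log axis, linear near 0) of the 47 members led by novel_pir140986 and the 9 members led by novel_pir402871, a point per library in F0, F1 and F2, NHS left of Con, coloured by tRNA-Ala-low (blue) and tRNA-Ala-high (red) libraries. The 6 red points are at most 0.443 TPM in one panel and at least 22.3 TPM in the other.

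When the exposed line was compared with controls here, the members' summed level showed no difference beyond the spread between libraries. Member reads in F0 NHS were 491, 387 and 265 TPM, against 342, 132 and 472 TPM in F0 Con. In F1 NHS they were 1143, 493 and 904 TPM, against 1202, 716 and 1111 TPM in F1 Con. In F2 NHS they were 432, 1232 and 1275 TPM, against 198, 258 and 1474 TPM in F2 Con. The groups overlapped in each generation, and the lowest value of each group that holds a tRNA-Ala-high library is from one of these.

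Means were 381 ± 113 TPM in F0 NHS and 315 ± 172 TPM in F0 Con, 847 ± 329 TPM in F1 NHS and 1009.8 ± 258 TPM in F1 Con, and 979.9 ± 475 TPM in F2 NHS and 643 ± 720.4 TPM in F2 Con (SD, n = 3 each). On the log2 scale NHS minus Con was 0.41 in F0, -0.30 in F1 and 1.06 in F2 (exact permutation p = 0.6, 0.6 and 0.4, two-sided, where 3 against 3 cannot go below 0.1). Pooled with labels permuted within generation it was 0.39 (exact permutation p = 0.367, adjusted 0.772 over the 56 tests of this kind). The differences between generations did not pass either (range 1.36 log2, exact permutation p = 0.354).

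The families with the most member reads, MaLR and L1, did not separate NHS from Con either. MaLR members in F0 NHS were at 178, 121 and 47.7 TPM, against 103, 25.4 and 144 TPM in F0 Con. They were at 346, 106 and 298 TPM in F1 NHS, against 389, 270.2 and 403 TPM in F1 Con, and at 73.0, 441 and 368 TPM in F2 NHS, against 36.2, 56.7 and 534 TPM in F2 Con. In each group that holds a tRNA-Ala-high library, the lowest MaLR value was from one, and the groups overlapped in each generation. L1 members were at 85.4, 82.8 and 143 TPM in F0 NHS, against 72.1, 59.0 and 99.7 TPM in F0 Con. They were at 229, 192 and 214 TPM in F1 NHS, against 242, 130.2 and 213 TPM in F1 Con, and at 166, 262 and 269.6 TPM in F2 NHS, against 88.5, 103 and 325 TPM in F2 Con. The L1 sums include the group led by novel_pir402871 with its rRNA matches, and without it F0 NHS had 84.2, 80.6 and 53.0 TPM and F1 NHS 227, 105 and 211 TPM, so the tRNA-Ala-high library was then the lowest in each. L1 groups overlapped as well, and no test was run per family.

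Distinct members were counted as the number expected when every library is thinned to the total of the smallest one, so that depth does not enter. F0 NHS had 4263, 3392 and 1865, against 3582, 1288 and 4799.6 in F0 Con. F1 NHS had 10,502, 3956 and 8510.1, against 9246, 4879 and 6509 in F1 Con, and F2 NHS had 2395, 8967 and 10,677, against 1485, 1378 and 5916 in F2 Con. Groups overlapped in each generation, and the 6 tRNA-Ala-high libraries held 1288 to 3956 distinct members against 3392 to 10,677 in the 12 others. NHS minus Con was -50.1 in F0, 778 in F1 and 4420 in F2 (exact permutation p = 1, 0.8 and 0.2), and 1716 pooled (exact permutation p = 0.212). When labels were permuted only within the same generation and the same side of the tRNA-Ala split, which the data define, the pooled p was 0.0278 (exact permutation, 1080 relabellings, adjusted 0.194 over 7 such tests). Within the 12 tRNA-Ala-low libraries alone the difference was 2057 (exact permutation p = 0.0944, 180 relabellings).

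Relative to all other predicted piRNAs of the same library, the log2 ratio of member reads to other reads differed between NHS and Con by 0.11 in F0, -1.12 in F1 and 1.57 in F2 (exact permutation p = 1, 0.2 and 0.3). Pooled it differed by 0.19 (exact permutation p = 0.767), and the range over generations was 2.69 (exact permutation p = 0.131). Members made up 1.06% to 5.45% of predicted piRNA reads in the 6 tRNA-Ala-high libraries and 3.80% to 21.1% in the other 12. The opposite signs in F1 and F2 stand beside an unequal spread of these libraries, with 1 in F1 NHS and 0 in F1 Con, and 1 in F2 NHS and 2 in F2 Con, and their part in the result was not tested. In the 12 libraries alone the difference was -0.52 in F0, -0.84 in F1 and -0.02 in F2, where F2 Con then rests on 1 library, and -0.46 pooled (exact permutation p = 0.133).

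The length profile within 24 to 33 nt is not fixed by the rule. Read-weighted mean lengths in F0 NHS were 26.4, 25.4 and 25.4 nt, against 25.8, 25.3 and 26.6 nt in F0 Con. They were 26.4, 26.2 and 26.6 nt in F1 NHS, against 27.3, 26.6 and 26.02 nt in F1 Con, and 26.3, 26.9 and 27.6 nt in F2 NHS, against 25.8, 25.6 and 26.9 nt in F2 Con. The groups overlapped, and NHS minus Con was -0.135 nt in F0, -0.285 nt in F1 and 0.832 nt in F2 (exact permutation p = 0.7, 0.6 and 0.2), and 0.137 nt pooled (exact permutation p = 0.64). Reads of 29 to 33 nt, the part nearest to the length of piRNAs bound by MIWI, the PIWI protein of late spermatogenesis, made up 40.2% of member reads in F2 NHS replicate 3 and 33.3% in F1 Con replicate 1 but 1.94% in F0 Con replicate 2. Their share differed by 1.14 percentage points between NHS and Con over the generations (exact permutation p = 0.836).

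**Figure D5:**
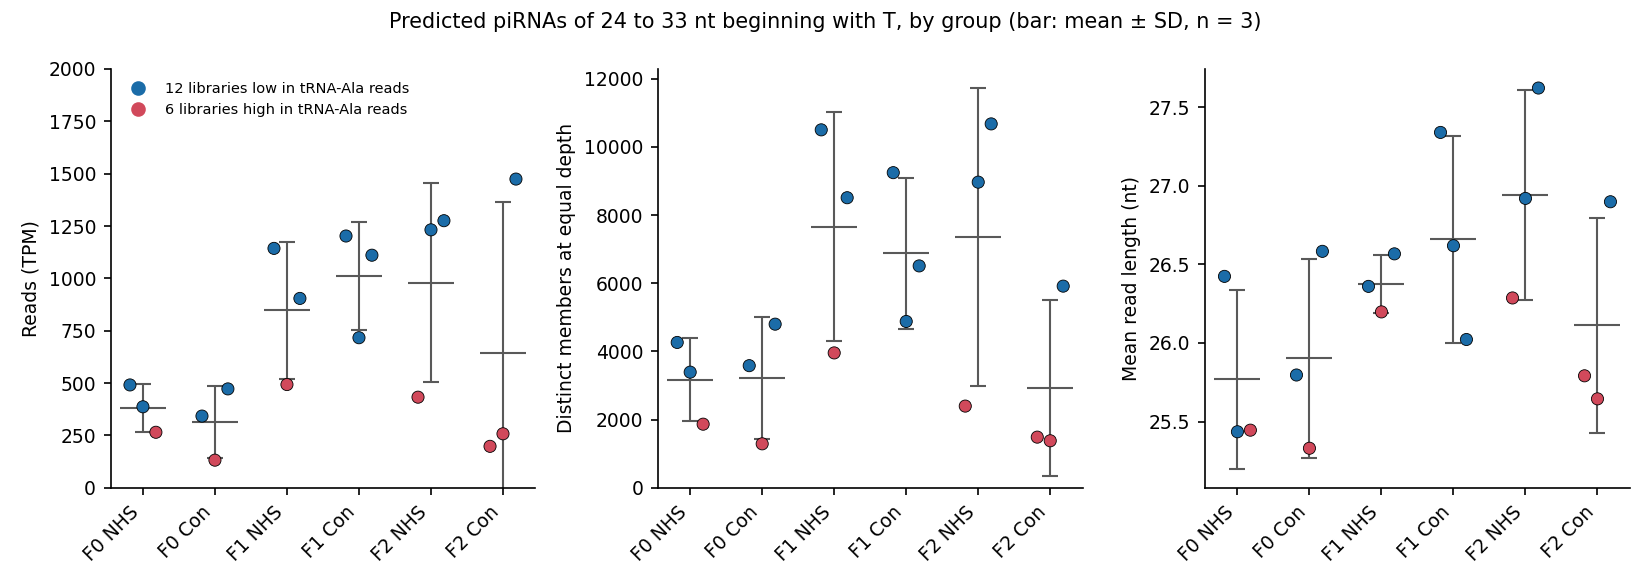
Summed member level in TPM, distinct members at equal depth and read-weighted mean length in nt, a point per library with NHS left of Con in F0, F1 and F2, coloured by tRNA-Ala-low (blue) and tRNA-Ala-high (red) libraries. Bars are means ± SD (n = 3), the lower SD bar of F2 Con level is drawn to 0, and NHS and Con points overlap in every generation of all 3 panels.

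Among controls alone, F1 Con lay above F0 Con without overlap, at 716 to 1202 TPM against 132 to 472 TPM (log2 difference 1.83, exact permutation p = 0.1, the smallest that 3 against 3 allows). Distinct members did so as well, at 4879 to 9246 against 1288 to 4799.6, a difference of 3655 (exact permutation p = 0.1), and the log2 ratio to other entries by 2.20 (exact permutation p = 0.1). None passed after adjustment over the 56 tests (adjusted p of 0.742 or more). Germ cell miRNAs moved with this difference, at 10.4%, 7.39% and 6.28% of miRNA reads in F1 Con against 1.18%, 0.990% and 1.37% in F0 Con, and smooth muscle miRNAs in the other direction, at 7.26%, 3.43% and 4.06% against 12.5%, 41.8% and 10.9%. Their part in the result was not tested. F2 Con minus F0 Con was 0.61 log2 (exact permutation p = 0.7) and F2 Con minus F1 Con was -1.22 log2 (exact permutation p = 0.4), with 2 tRNA-Ala-high libraries in F2 Con. Germ cell miRNAs did not follow the members there, at 5.77%, 10.9% and 7.36% of miRNA reads in F2 Con with members at 198, 258 and 1474 TPM. Smooth muscle miRNAs were at 9.20%, 6.21% and 4.08% in these libraries. The labels do not say whether generations were sequenced together.

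Single members could be tested only where reads were frequent enough. A level of at least 1 TPM in at least 3 libraries was reached by 937 predicted piRNAs, among them 105 of the 70,083 members. In edgeR's quasi-likelihood test, adjusted over the 937, 0 of 105 members passed an adjusted p of 0.05 in F0, F1, F2, the mean of the generations or the difference between generations. The share of all 937 called was 0% in F0, F1, the mean and the difference, and 0.107% in F2. At an unadjusted p under 0.05 there were 1, 1, 7, 4 and 5 members in these comparisons, against 4.59%, 6.72%, 10.2%, 6.62% and 7.58% of all 937, and the members' shares of 0.952%, 0.952%, 6.67%, 3.81% and 4.76% lay below each of these. DESeq2 called 0 members in F0, F1, the mean and the difference between generations, and 1 in F2, while its share of all entries called was 1.25%, 1.2%, 3.09% and 0.872% in the first 4 and 3.27% in F2. Without the 6 tRNA-Ala-high libraries edgeR called 1 of 94 members in F2, where Con then rests on 1 library, and 1 in the difference between generations, and 0 in F0, F1 and the mean. The shares of all entries it then called were 5.01% in F2, 6.55% in the difference, 0.279% in F0, 0.975% in F1 and 4.18% in the mean.

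The median log2 fold change, NHS over Con, of the 105 members was 0.15 in F0, equal to that of all 937, and -0.91 in F1 against -0.02 for all. In F2 it was 1.18 against 0.41 for all, with 86 of 105 members above 0 (81.9%, against 58.5% of all). Several of the 105 differ from one another only at the 3′ end, so they are not independent and the 86 is a description. The tRNA-Ala-high libraries number 2 in F2 Con and 1 in F2 NHS. Their part in the filter and in the F2 median was not tested. Single libraries moved these medians: leaving out 1 library at a time gave -0.79 (without F0 NHS replicate 1) to 0.75 (without F0 Con replicate 3) in F0, -1.29 (without F1 NHS replicate 1) to -0.27 (without F1 Con replicate 1) in F1, and 0.36 (without F2 Con replicate 2) to 4.80 (without F2 Con replicate 3) in F2. The F2 median was also 0.70 without F2 Con replicate 1 and 0.71 without F2 NHS replicate 3. Scaling by library totals in place of TMM moved the medians of all entries in F2 to -0.23 and of members to 0.42, so the F2 median of all entries changed sign with the scaling and that of members did not. Without the 6 tRNA-Ala-high libraries the F2 median of the members was 0.20, below the 0.70 of all entries.

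The member called by DESeq2 in F2, novel_pir32267, belongs to an ERVK interval on chromosome 10. It had 0.617, 0.121 and 1.77 TPM in F2 NHS, against 0, 0 and 0.115 TPM in F2 Con. The levels did not overlap, but F2 NHS replicate 2 and F2 Con replicate 3 each had 3 reads and differ only by library total. Its log2 fold change was 5.03 ± 1.61 in edgeR (SE, adjusted p = 0.324) and 5.25 in DESeq2 (adjusted p = 0.0244). The same member was at 0.755, 2.002 and 1.26 TPM in F1 NHS, against 2.93, 0.467 and 4.39 TPM in F1 Con, where the groups overlapped.

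None of the other members with the smallest p of a comparison passed the adjusted threshold in edgeR, and several differed through 1 library. In F1, novel_pir402871 of the group with rRNA matches had 0.464, 35.2 and 0.408 TPM in NHS, against 0.664, 0.0850 and 0.628 TPM in Con (edgeR log2 fold change 5.21 ± 2.35, adjusted p = 0.675), so F1 NHS replicate 2, a tRNA-Ala-high library, stood apart. A longer sequence of that group, novel_pir402870, had 0.290, 15.9 and 0.333 TPM in F1 NHS, against 0.664, 0.128 and 0.589 TPM in F1 Con (edgeR log2 fold change 4.07 ± 2.13, adjusted p = 0.713). In F0, novel_pir134121 had 1.26, 1.66 and 1.13 TPM in NHS, against 0.157, 0.331 and 0.374 TPM in Con, without overlap (edgeR log2 fold change 2.04 ± 1.12, adjusted p = 0.988). This sequence shares its assigned MaLR interval with novel_pir134113, and its source was not tested. In F2, the MaLR member novel_pir435496 was at 0, 0.241 and 0.731 TPM in NHS and at 0 in the 3 Con libraries, and the ERVL member novel_pir541272 at 0, 0.925 and 1.999 TPM in NHS, against 0.0418, 0 and 0 TPM in Con (edgeR adjusted p = 0.345 and 0.379). The lowest F1 member, novel_pir226531 of ERVK, was at 0, 0 and 0.222 TPM in NHS, against 0.860, 3.99 and 0.118 TPM in Con (edgeR log2 fold change -4.55 ± 2.41, adjusted p = 0.716). Over the mean of the generations the smallest p belonged to novel_pir402867 and novel_pir402871 of the group with rRNA matches (edgeR log2 fold changes 2.95 ± 1.22 and 2.88 ± 1.22, adjusted p = 0.555 and 0.595). These values rest on the 3 tRNA-Ala-high NHS libraries. Without F0 NHS replicate 3, F1 NHS replicate 2 or F2 NHS replicate 1, novel_pir402867 was at 0.93, 1.87 and 1.78, and novel_pir402871 at 1.51, 0.96 and 1.48.

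The remaining named members were low in most libraries. The overlapping sequences of a hAT-Tip100 interval on chromosome 17, novel_pir459271 and novel_pir459239, were at 0.973, 0.883 and 0.189 TPM and at 0.540, 0.238 and 0.0945 TPM in F0 NHS, while both were at 0.0392, 0 and 0 TPM in F0 Con (edgeR log2 fold changes 4.86 ± 2.15 and 3.68 ± 2.06, adjusted p = 0.986 and 0.988). Their F0 groups did not overlap, but each rests on 1 Con library with any read. A source other than the assigned interval was not tested for them. For the difference between generations, novel_pir531225 and novel_pir531199, assigned to an ERVK interval at chr1:32588609-32588654, had the smallest p after novel_pir32267 (edgeR adjusted p = 0.617 for all 3). Nuclear tRNA genes were not searched, so a tRNA source of novel_pir531225 and novel_pir531199 was not tested. The sequence novel_pir531199 was at 1.30, 3.70 and 0.0473 TPM in F0 NHS, against 0.0392, 0.0472 and 0.320 TPM in F0 Con. It was at 0, 0 and 0.0371 TPM in F1 NHS, against 0.274, 0.255 and 0.235 TPM in F1 Con, and at 0, 4.39 and 0 TPM in F2 NHS, against 0, 0.387 and 0 TPM in F2 Con, so the groups overlapped in F0 and F2 and not in F1. The leading member novel_pir140986 had 0.116, 57.0 and 15.2 TPM in F2 NHS, against 0.251, 0.111 and 48.9 TPM in F2 Con, and its groups overlapped in each generation.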

How the data were processed

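Counts of reads per small RNA were deposited in 1 table for all 18 libraries, whose lists were followed by library name, and a second deposited table gave sequence and repeat interval (build mm10, per the submitters' processing notes). For the aligner and the prediction tool, no name is given in the sources used here. Deposited TPM values equal the count over the library total, and totals were taken from this ratio where a list stops early. Lines with split contig names (128) were read from the right. The members, lists and comparisons were chosen with earlier results of these data known. Named members are the 10 of highest mean level, the 3 of smallest edgeR p per comparison and any called. Members were counted by identifier, and distinct members were thinned by the hypergeometric expectation. Group labels were permuted exactly. edgeR 4.0.16 (TMM, library totals, at least 1 TPM in at least 3 libraries, 6 group means) was the main test, and DESeq2 1.42.0, library-total scaling, a term for the tRNA-Ala split, leaving out each library and a replicate block were tried. R 4.3.3, Python 3.11.15, numpy 2.4.6 and scipy 1.17.1 were used, and the tests were checked on simulated data. Sequences matched GENCODE M21 transcripts exactly over their whole length. The 1 tRNA gene was named from RefSeq by position in the deposited list of predicted miRNAs (other values). Same-numbered libraries did not vary together, so replicate numbers were not treated as pairs. Reads lack molecular identifiers, so single reads are not independent molecules.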

Additional observations from a re-analysis of the deposited data

How the results depend on the processing

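Of 1045 values under other settings, 981 kept direction and side of the threshold, 55 changed sign, 5 newly passed, 1 no longer passed and 3 moved. Many are exact permutations of 3 against 3 libraries or fewer, whose p cannot go below 0.1. These could never change side of the threshold, so only their direction was open, and the count of 981 does not measure robustness for them. In no NHS comparison of a library value did a sign change involve a call, and the causes were not tested. Counting only members with 2 or more reads, distinct members differed by 504 in F0 and -1126 in F1. With each distinct member counted once, mean length differed by 0.0241 nt in F0. Without the 6 tRNA-Ala-high libraries, the log2 level differed by 0.0452 in F1, -0.234 in F2 and -0.0242 pooled, and by 0.581 for F2 Con against F1 Con. There the ratio to other entries was -0.522 in F0, -0.0243 in F2, -0.463 pooled, 1.51 for F2 Con against F0 Con and 0.0449 for F2 Con against F1 Con. Distinct members for F2 Con against F0 Con were 1725, and mean length -0.0281 nt pooled and 0.238 nt for F2 Con against F1 Con. There too, A at position 10 in listed members passed at 2.08 points above all others (permutation p = 0.00046), ERVL at -0.616 (permutation p = 0.0242), and ERVK was 0.598. Against same-length entries with another first base, A at position 10 was -1.81 by sequences and -4.63 by reads, L1 -2.15 and no longer passed, ERVK 0.520 and ERV1 -0.500. Called members numbered 1 in F2 by DESeq2, 1 in F2 without the 6 libraries (novel_pir541272) and 1 for the difference between generations without them (novel_pir531199).

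Leaving out 1 library at a time gave log2 levels of -0.123 to 0.798 in F0 and -0.562 to 0.0452 in F1, ratios of -0.629 to 0.552 in F0, -0.0998 to 0.589 pooled and 1.82 to 3.89 for the range over generations, which passed without F2 Con replicate 3 (exact permutation p = 0.0465). Distinct members differed by -1018 to 738 in F0 and -645 to 2628 in F1, and mean length by -0.463 to 0.205 nt in F0 and -0.604 to 0.0545 nt in F1. F2 Con against F0 Con gave -1792 to 491 distinct members, -0.185 to 0.548 nt, -0.296 to 1.15 in log2 level and -1.35 to 0.716 in the ratio. A at position 10 against all others was 0.684 to 1.03 points, passing without F0 Con replicate 2 or F0 NHS replicate 3, and ERVL -0.154 to 0.0935.

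With the replicate block, 0 members were called in each of the 5 comparisons, as without it, and 1, 0, 6, 5 and 1 had an unadjusted p under 0.05. Same-numbered libraries had a mean correlation of deviations of -0.000166 over 45 pairs, and 7 of 18 libraries correlated best with their own number. Depth limits single members: 105 of 70,083 could be tested.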
